A study of Mus musculus with 17 samples.

Results

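Transcripts that mark the epithelium of the choroid plexus were followed through 17 mouse cortex libraries. The set held 9 genes, Ttr, Enpp2, Kl, Sostdc1, Aqp1, Slc4a5, Clic6, Folr1 and Otx2, of the 56953 genes in the count table, and each matched 1 entry by its symbol. The genes were chosen by a measured value, because Ttr was very high in 1 WT library, replicate 5, so the levels in that library and every comparison of WT that includes it are descriptions. In the comparison of the other genotypes it enters through the shared estimate of the spread, the scaling of the libraries and the filter on low counts. RNA was measured by bulk sequencing in 5 WT, 6 PS19 and 6 CgA-KO/PS19 mice, all on the B6C3F1/J background and labelled as 8 months old. PS19 mice, labelled hTau, are heterozygous for human P301S Tau, expressed from the Prnp promoter. CgA-KO/PS19 mice, labelled CgA-KO/hTau, carry the same transgene and lack Chga in the whole body, so that only the WT mice are free of the transgene. The labels give prefrontal cortex as the tissue and do not give the sex of each animal.

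The choroid plexus is a sheet of secretory epithelium around a vascular core that hangs into the ventricles of the brain and makes most of the cerebrospinal fluid. Its cells release the carrier protein transthyretin, encoded by Ttr, into the fluid, and move salt, bicarbonate and water across their apical face. The epithelium lies beside the cortex and hippocampus but is not part of the cortical wall, so its defining transcripts are low in cleanly dissected cortex. Of the set, Enpp2 and Kl are also made by cells of the brain tissue itself, Enpp2 by oligodendrocytes and Kl by some neurons. In bulk RNA, more cells of a type and more RNA per cell cannot be told apart.

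The sequence next to the start of these genes is shown because the 9 transcripts were highest in the same library and Otx2 is itself a transcription factor of this epithelium, so that what lies at their starts is of interest. RefSeq windows of 250 bases before the start (GRCm38.p6) were matched for Kl, Aqp1, Otx2 and Slc4a5, and the 3 genes with a window that overlapped no annotated exon are printed 5′ to 3′ on the strand of the gene. Capitals mark a match to TATAAA, the TATA box, or to TAATCC, the core bound by OTX proteins, searched on both strands (TTTATA and GGATTA in reverse).
Kl, chr5:150952357-150952606, plus strand: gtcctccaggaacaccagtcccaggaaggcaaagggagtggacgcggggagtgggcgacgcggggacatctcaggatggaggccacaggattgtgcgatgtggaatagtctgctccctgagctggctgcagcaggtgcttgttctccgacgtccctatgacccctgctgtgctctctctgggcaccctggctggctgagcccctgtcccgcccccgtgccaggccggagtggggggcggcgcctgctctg
Aqp1, chr6:55336049-55336298, plus strand: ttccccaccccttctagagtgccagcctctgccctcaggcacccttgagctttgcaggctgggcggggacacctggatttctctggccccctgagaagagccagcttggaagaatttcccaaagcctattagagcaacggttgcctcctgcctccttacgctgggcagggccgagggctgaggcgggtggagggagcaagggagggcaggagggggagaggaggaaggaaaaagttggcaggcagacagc
Otx2, chr14:48667645-48667894, minus strand: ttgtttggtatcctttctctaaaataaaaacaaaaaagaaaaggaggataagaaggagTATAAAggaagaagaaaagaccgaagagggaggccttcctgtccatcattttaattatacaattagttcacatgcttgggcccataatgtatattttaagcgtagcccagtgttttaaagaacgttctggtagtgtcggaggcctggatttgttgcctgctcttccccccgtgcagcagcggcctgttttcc
TATAAA was found in the Otx2 window, from base -192 to base -187 counted back from the start, and neither motif was found in the other windows printed. Among the windows not printed because they overlapped exons, another window of Otx2 held the OTX core in reverse from base -211 to base -206, and that of Slc4a5 held the TATA box in reverse from base -127 to base -122. Over 32851 RefSeq windows of the same length, 12.4% held TATAAA and 6.25% held TAATCC on either strand. The Kl and Aqp1 windows were 66.8% and 62.0% G and C, and the Otx2 window 42.0%, beside a median of 52.4% over all windows. A match describes letters and not a bound site, and Otx2 has further start windows, which overlapped exons.

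Library depth was 8838334 to 227651681 deposited counts, and WT replicate 4 was the shallowest. Low counts piled up at 3 and 6, and about 3 deposited counts were taken as 1 fragment. Counts of 1 were also common, in 1056 to 1655 genes per library, so this scale is approximate. A count of 0 allowed up to 1.03 CPM (deposited counts scaled to a common depth, per 1000000, with edgeR's TMM library sizes) in WT replicate 4 and 0.0396 to 0.260 CPM in the others, for counting error only. Chga was at 0 in the 6 CgA-KO/PS19 libraries and 151.7 to 180.1 CPM in the rest. The Y-linked gene Ddx3y was detected above 1 CPM only in the libraries numbered 1 to 3, whatever the genotype. The mitochondrial share of counts was 13.8% to 18.2% in CgA-KO/PS19 replicates 1 to 3 and 2.56% to 10.9% elsewhere. PS19 replicates 4 to 6 were the most alike of all pairs within a genotype, with a robust SD of the log2 ratio between 0.0523 and 0.0607 over 3761 genes, and CgA-KO/PS19 replicates 1 and 3 were next at 0.0980. Those libraries may not be independent samples, so results on them are also given with each such cluster averaged to 1 sample.

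Ttr, which encodes the carrier of thyroxine and of the retinol-binding protein, was at 6.25, 3.24, 5.33, 9.92 and 1023 CPM in WT replicates 1 to 5. In PS19 it ran from 0.527 to 1.38 CPM with a median of 1.17 (n = 6), and in CgA-KO/PS19 from 2.63 to 6.75 CPM with a median of 3.05 (n = 6). WT replicate 5 thus stood apart from all other libraries, and below it the genotypes were ordered WT, CgA-KO/PS19 and PS19. The 4 remaining WT libraries and the CgA-KO/PS19 libraries overlapped, and each PS19 library lay below each library of the other genotypes. In WT replicate 5, Ttr alone took 0.106% of all counts, against at most 9.84e-04% in any other library. Its level there was 103 times that of the next highest library, WT replicate 4.

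**Figure D1:**
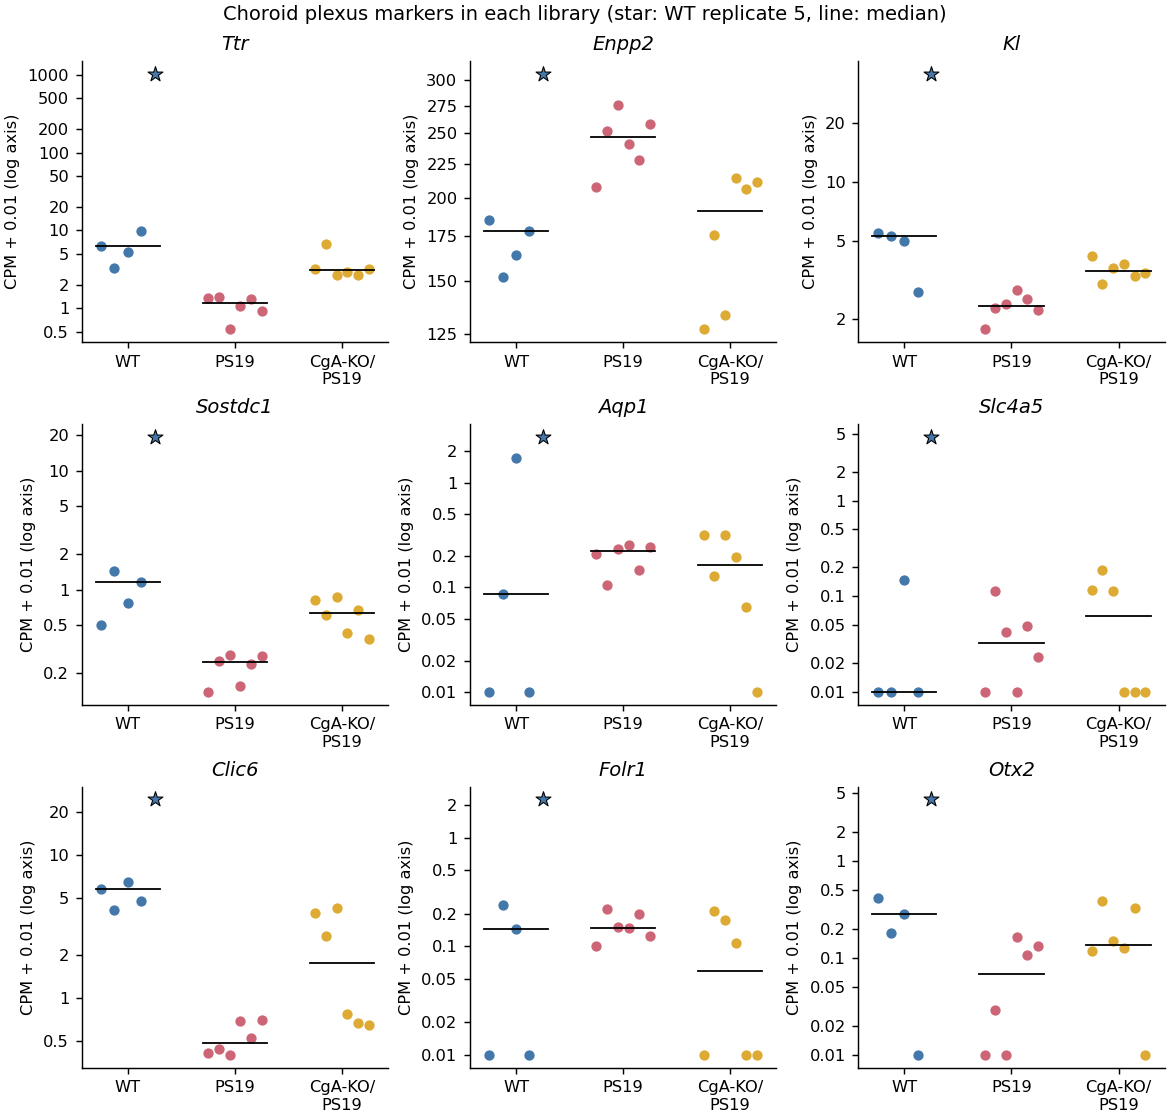
Level of each of the 9 genes in each library, as CPM plus 0.01 on a log axis, by genotype; points are libraries, the star is WT replicate 5 and the line is the median of the genotype. The star is the highest point in every panel, and for Ttr it stands at 1023 CPM against at most 9.92 CPM elsewhere.

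Enpp2 (chromosome 15, 54838901 to 54952892, GRCm38) encodes autotaxin, the secreted enzyme that makes lysophosphatidic acid. It was at 185, 152, 164, 179 and 307 CPM in the WT replicates, 208 to 275 CPM with a median of 246 in PS19, and 127 to 214 CPM with a median of 191 in CgA-KO/PS19. Enpp2 was abundant in every library and differed from Ttr in its order, since PS19 stood above WT when replicate 5 was set aside. Within CgA-KO/PS19 it was 127 to 176 CPM in replicates 1 to 3 and 206 to 214 CPM in replicates 4 to 6.

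Sostdc1 (chromosome 12, 36314139 to 36318452) encodes a secreted antagonist of BMP and Wnt signals. Its WT levels were 0.492, 1.41, 0.756, 1.14 and 19.3 CPM. PS19 libraries held 0.127 to 0.271 CPM with a median of 0.236, and CgA-KO/PS19 libraries 0.375 to 0.859 CPM with a median of 0.631. As for Ttr, no PS19 library reached the lowest library of the other genotypes. Sostdc1 rested on few deposited counts in the shallower libraries, 7 in PS19 replicate 1, 10 in WT replicate 4 and 13 in CgA-KO/PS19 replicate 6. In WT replicate 4 its 1.14 CPM lay near the 1.03 CPM that a count of 0 allowed there. Kl (chromosome 5, 150952607 to 150993817) encodes klotho, a co-receptor for FGF23 that is also shed into the fluid. Its WT levels were 5.47, 5.29, 5.00, 2.74 and 35.4 CPM, and those of PS19 ran from 1.77 to 2.79 CPM with a median of 2.33. In CgA-KO/PS19 they ran from 3.01 to 4.19 CPM with a median of 3.52. The genotypes of PS19 and CgA-KO/PS19 did not overlap, whereas the shallow WT replicate 4, with 24 deposited counts, lay inside the PS19 range.

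The channels and transporters differed from each other. Clic6 (chromosome 16, 92485736 to 92541243), which encodes an intracellular chloride channel protein, was at 5.84, 4.10, 6.46, 4.79 and 24.7 CPM in WT and at 0.391 to 0.690 CPM with a median of 0.472 in PS19. In CgA-KO/PS19 it was at 3.92, 2.73 and 4.28 CPM in replicates 1 to 3 and at 0.765, 0.664 and 0.635 CPM in replicates 4 to 6. CgA-KO/PS19 therefore fell into a high and a low trio, and the low trio overlapped PS19. Aqp1 (chromosome 6, 55336432 to 55348555), the apical water channel, was at 0, 0.0769, 1.70, 0 and 2.74 CPM in WT, where replicate 3 with 332 deposited counts also stood out. It was 0.0959 to 0.242 CPM in PS19 with a median of 0.211, and 0 to 0.308 CPM in CgA-KO/PS19 with a median of 0.153. Slc4a5 (chromosome 6, 83219828 to 83304945), a sodium bicarbonate cotransporter, was at 0, 0, 0.138, 0 and 4.64 CPM in WT, and at most 0.102 CPM in PS19 and 0.179 CPM in CgA-KO/PS19. Outside WT replicate 5, both genes lay at or near the level of a few fragments in most libraries, and the genotypes overlapped.

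Folr1 (chromosome 7, 101858331 to 101870788), the folate receptor through which the epithelium loads folate into the fluid, was at 0, 0.231, 0.133, 0 and 2.25 CPM in WT, 0.0911 to 0.211 CPM in PS19 and 0 to 0.199 CPM in CgA-KO/PS19. Otx2 (chromosome 14, 48657677 to 48673819), the homeodomain factor that maintains the epithelium, was at 0.405, 0.169, 0.271, 0 and 4.30 CPM in WT, 0 to 0.155 CPM in PS19 and 0 to 0.379 CPM in CgA-KO/PS19. Both genes were clear of the limit of counting in WT replicate 5, with 233 and 445 deposited counts, and had at most 53 in any other library.

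Set beside each other per kilobase of exon, the members changed places between WT replicate 5 and the rest. In WT replicate 5 Ttr stood first at 863 CPM per kilobase, followed by Enpp2 at 53.1, Sostdc1 at 10.8, Clic6 at 6.31 and Kl at 3.80. By the median of the other 16 libraries Enpp2 stood first at 35.8 CPM per kilobase, Ttr was at 2.35 and the remaining 7 genes were at or below 0.338. The summed level of those 7 genes was 93.3 CPM in WT replicate 5, 8.67 to 14.5 CPM in the other WT libraries, 4.42 to 9.49 CPM in CgA-KO/PS19 and 2.59 to 4.15 CPM in PS19.

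All 9 genes had their highest level in WT replicate 5, where 8.71% of the 23062 genes tested did. For 6 of the 9, Ttr, Slc4a5, Sostdc1, Otx2, Folr1 and Kl, the level there was at least 5 times that of the next highest library, which held for 0.065% of genes tested (15 genes). The set was chosen for this library, so nothing is read from these shares. The step over the next highest library was 13.6-fold for Sostdc1, 10.6-fold for Otx2, 9.76-fold for Folr1, 6.48-fold for Kl, 3.82-fold for Clic6, 1.62-fold for Aqp1 and 1.12-fold for Enpp2. Genes around the 5-fold step were Kl just above it and Clic6 just below it. Slc4a5 was 4.64 CPM against 0.179 CPM in CgA-KO/PS19 replicate 2, which is 9 deposited counts or about 3 fragments, so its step is not precise.

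Other genes of the epithelium were not used to choose the 9 but were measured in the same library, so their levels there are a description too. Of 39 further genes from a hand-written list in the table, 32 passed the filter on low counts, and 26 of these were highest in WT replicate 5, beside 8.71% of genes tested. At least 5 times the next library was reached by 6 of the 32, beside 0.065% of genes tested, Kcne2, Cldn2, Ecrg4, Kcnj13, Prlr and Krt18. Kcne2, a potassium channel subunit of the apical membrane, was at 5.80 CPM there and at most 0.303 CPM elsewhere. Cldn2, the claudin of leaky epithelia, was at 3.79 CPM against at most 0.215 CPM. Prlr, the prolactin receptor, was at 36.0 CPM against at most 5.36 CPM. Ecrg4, which encodes a secreted precursor peptide, was at 7.08 CPM against at most 0.737 CPM, and Tmem72 at 7.69 CPM against at most 1.94 CPM. The keratins Krt8 and Krt18 were at 1.19 and 2.40 CPM against at most 0.0306 and 0.461 CPM, and Steap1, a metalloreductase, at 1.004 CPM against at most 0.161 CPM. Krt8 and Steap1 were too low to pass the filter. The list was not uniform, since Wfikkn2 was at 0.579 CPM in WT replicate 5 and at a median of 0.965 CPM in the other libraries, and Mdfic at 1.35 and 1.68 CPM. These last 2 genes were named after their values were seen.

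**Figure D2:**
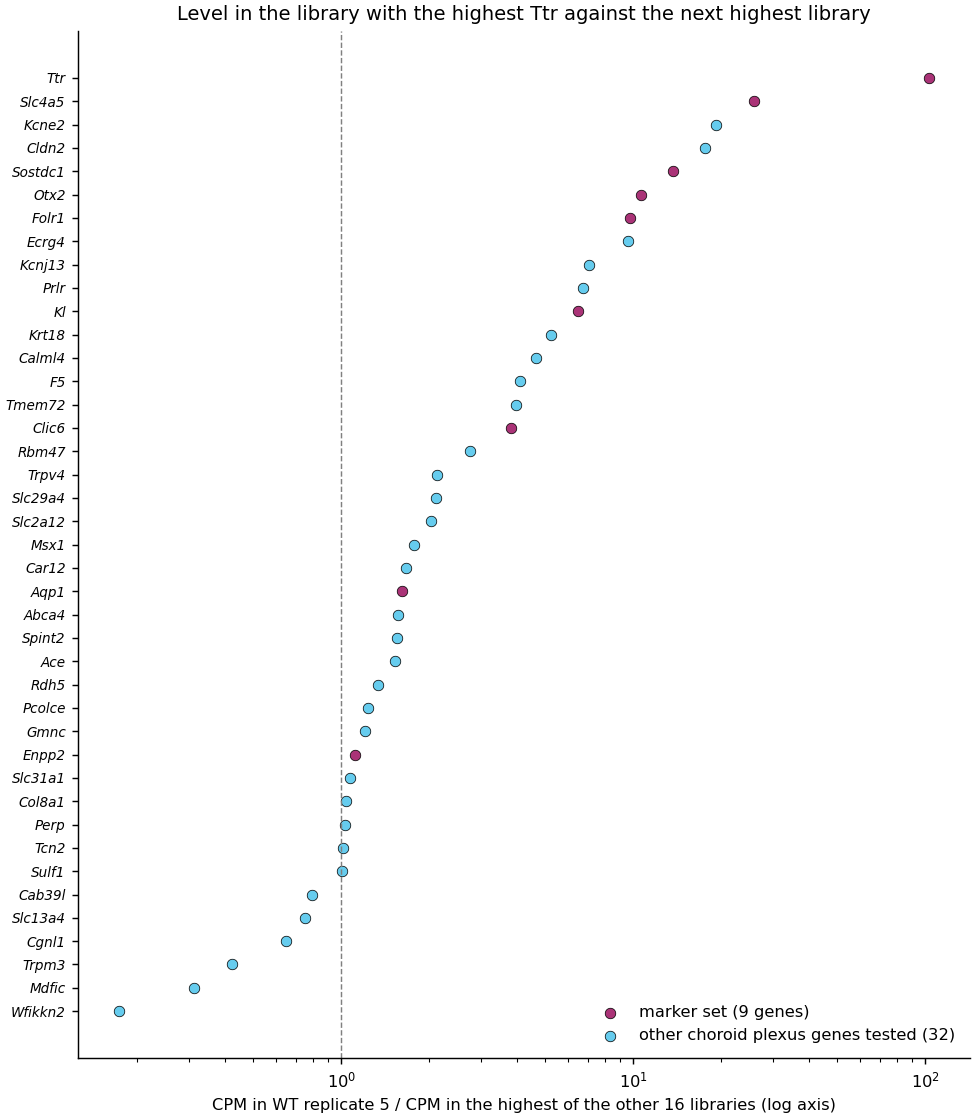
Level in WT replicate 5 divided by the level in the highest of the other 16 libraries, on a log axis, for the 9 genes of the set and the 32 other choroid plexus genes tested. Points to the right of the dashed line at 1 were highest in WT replicate 5, which holds for all 9 genes of the set and for 26 of the 32 others, with Ttr farthest out at 103-fold.

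The ratio of the members to each other also set WT replicate 5 apart. For each count of Ttr this library held 0.0346 counts of Kl, against 0.276 to 1.63 in the other WT libraries. The PS19 libraries held 1.33 to 4.54 counts of Kl per count of Ttr, and the CgA-KO/PS19 libraries 0.445 to 1.38. The ratio for Clic6 was 0.0242, against 0.483 to 1.27 in other WT, and the ratio ran from 0.301 to 0.751 over the PS19 libraries, then from 0.198 to 1.63 over the CgA-KO/PS19 libraries. The ratio for Sostdc1 was 0.0189, against 0.0787 to 0.436, 0.0959 to 0.515 and 0.0885 to 0.327. For these 3 genes the ratio to Ttr in WT replicate 5 lay below that of every other library. As Ttr was the gene that chose the set, these ratios are a description.

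**Figure D3:**
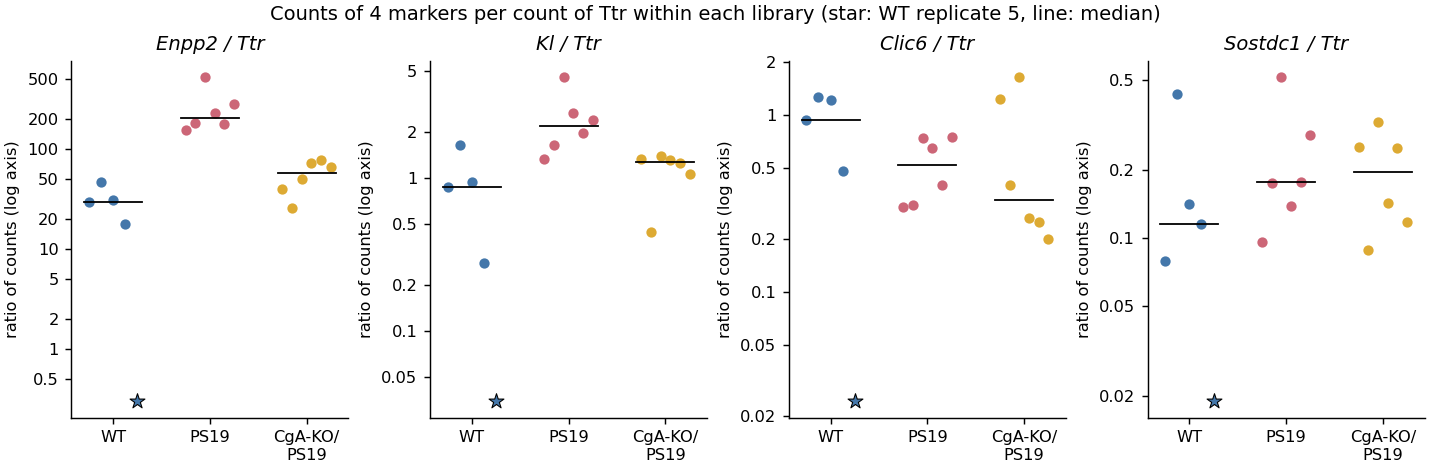
Counts of Enpp2, Kl, Clic6 and Sostdc1 per count of Ttr within each library, on a log axis, by genotype; points are libraries, the star is WT replicate 5 and the line is the median. The star is the lowest point in each panel, at 0.0346 for Kl, and among the rest the PS19 libraries had the highest Enpp2 ratios.

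Marker lists of neighbouring tissue were set beside these values. For the counts that follow, 8.71% of all genes tested were highest in WT replicate 5. WT replicate 5 held the highest level of 8 of 16 ependymal genes tested, whose summed level was 61.4 CPM there and 35.1 to 47.7 CPM in the other WT libraries. It held the highest level of 5 of 10 hippocampal genes, with a sum of 397 CPM against 191 to 276 CPM, and of 4 of 15 striatal genes. The striatal sum was 3493 CPM in WT replicate 5 and 3393 CPM in WT replicate 3, against 1326 to 1394 CPM in the other WT libraries and 220 to 394 CPM in PS19. The sum of cortical excitatory neuron genes was 1484 CPM in WT replicate 5 and 1756 to 3149 CPM in the other WT libraries. No gene of the lists for oligodendrocytes, red blood cells, endothelial cells, hepatocytes, or thalamus and habenula was highest in WT replicate 5, and 3 of 17 genes for meninges and fibroblasts were. Of the hepatocyte list, which holds genes of the other main source of transthyretin, 4 of 10 passed the filter. The share of these sums in the level of Ttr and the other members was not tested.

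**Figure D4:**
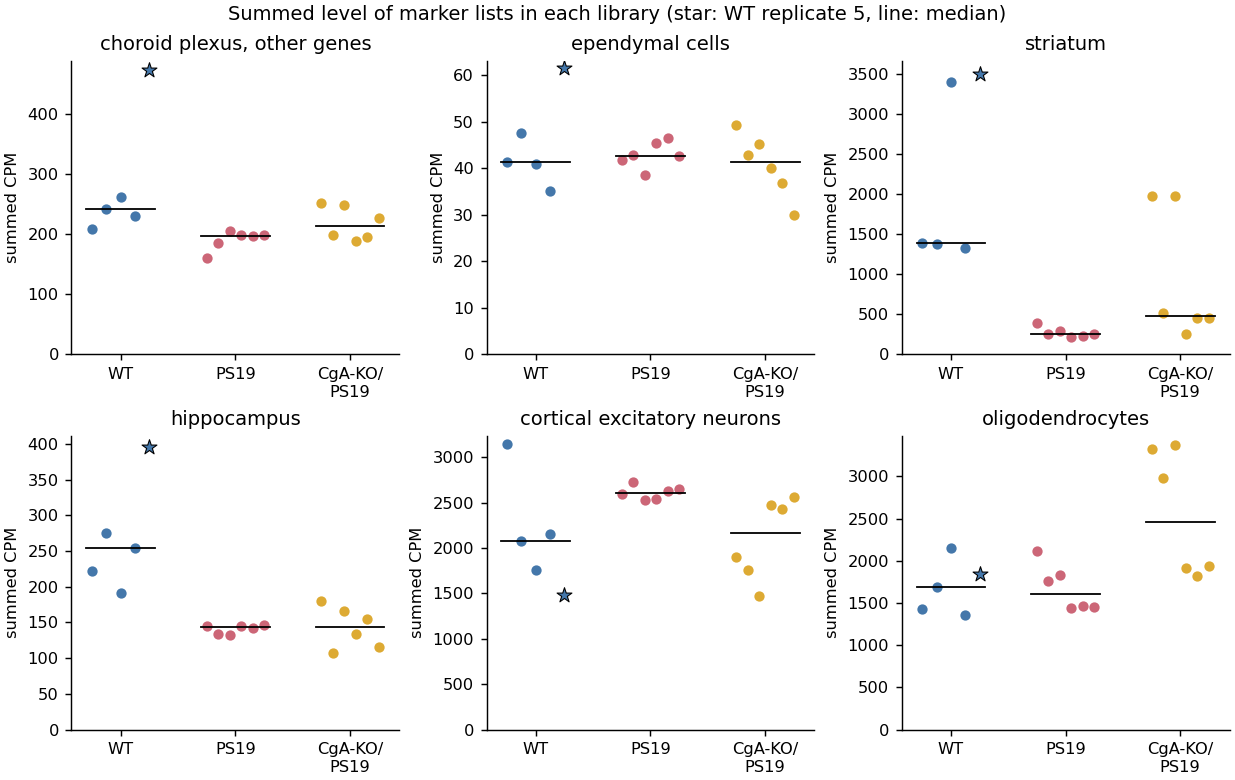
Summed CPM of 6 marker lists in each library by genotype; points are libraries, the star is WT replicate 5 and the line is the median. WT replicate 5 is highest for the other choroid plexus genes (472 CPM), ependymal cells and hippocampus, and WT replicates 3 and 5 are highest for striatum, while CgA-KO/PS19 replicates 1 to 3 are highest for oligodendrocytes.

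The comparison of CgA-KO/PS19 with PS19 asks how loss of Chga bears on these transcripts in mice with the Tau transgene, and neither genotype holds the library that chose the set. For Ttr, Kl and Sostdc1 the lowest CgA-KO/PS19 library lay above the highest PS19 library, and no member was lower throughout. These were 3 of 9 members without overlap, where 6.63% of genes tested had none. With all 17 libraries in 1 edgeR quasi-likelihood fit, 1 of 9 members was called at a false discovery rate (FDR) under 0.05, beside 9.72% of genes tested. This was Clic6, with a log2 fold change of 2.07 ± 0.54 (SE, FDR = 0.0253). Ttr had a log2 fold change of 1.72 ± 1.10 (FDR = 0.322) in this fit, in which WT replicate 5 sets the spread of the gene.

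Without WT replicate 5 the same comparison gave 5 of 8 members, beside 9.36% of genes tested, and Slc4a5 no longer passed the filter. Ttr rose by a log2 fold change of 1.72 ± 0.31 (FDR = 0.00453), Sostdc1 by 1.52 ± 0.31 (FDR = 0.00891), Clic6 by 2.07 ± 0.45 (FDR = 0.0117) and Kl by 0.62 ± 0.16 (FDR = 0.0269). Enpp2 fell by 0.45 ± 0.13 (FDR = 0.0409). The fold changes were nearly those of the fit with all libraries, and the errors of Ttr, Sostdc1 and Kl were smaller. Otx2, with 1.36 ± 0.85, Folr1, with -0.81 ± 0.78, and Aqp1, with -0.13 ± 0.83, did not pass. The median log2 fold change over the 8 members was 0.99, beside 0.03 over all genes tested. In the same fit 10 of 15 striatal genes were called higher in CgA-KO/PS19 and 0 lower, beside 9.36% of genes tested. The striatal sum was 256 to 1974 CPM in CgA-KO/PS19 and 220 to 394 CPM in PS19. Its part in the fold changes of the members was not tested. When the near-identical libraries were also averaged to 1 sample each, 0 of 7 members and 0 of 15 striatal genes were called by edgeR, beside 0.625% of genes tested. In that fit the log2 fold change of Ttr was 1.79 ± 0.39 (FDR = 0.0584) and that of Sostdc1 1.40 ± 0.38 (FDR = 0.105).

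**Figure D5:**
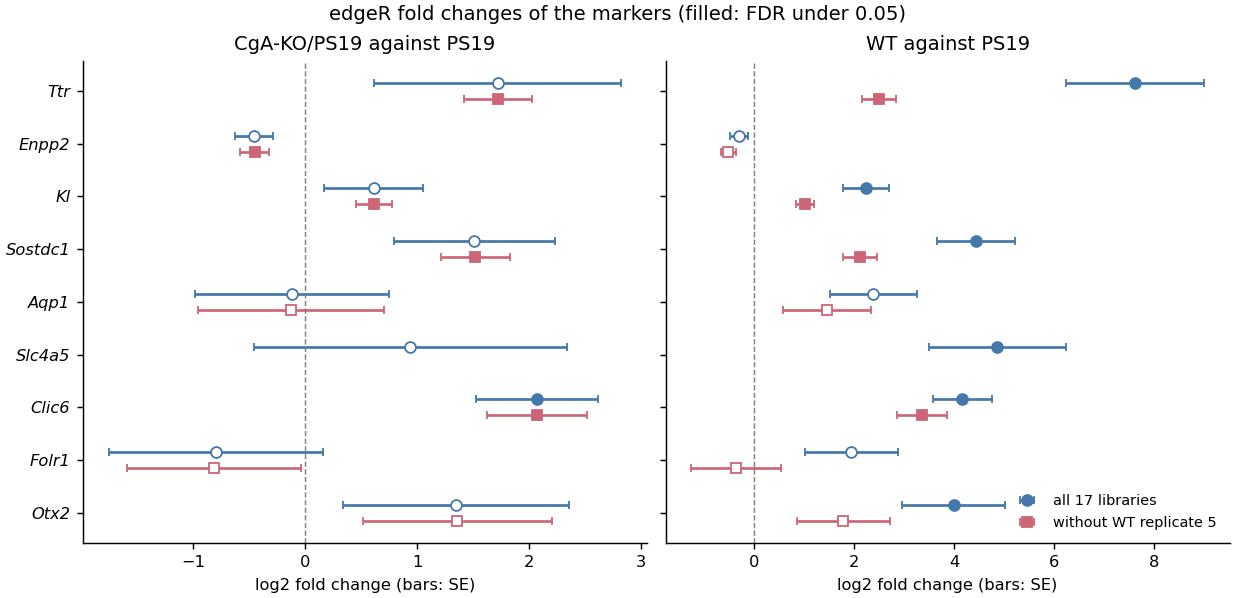
Log2 fold change of each gene against PS19, with its standard error as the bar, in CgA-KO/PS19 (left) and WT (right); circles are the fit with all 17 libraries and squares the fit without WT replicate 5, and filled symbols have an FDR under 0.05. For CgA-KO/PS19 the fold changes hardly move and the errors of Ttr, Kl and Sostdc1 shrink, while for WT the fold change of Ttr goes from 7.61 to 2.49.

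The rise of Clic6 belonged to CgA-KO/PS19 replicates 1 to 3. Among libraries with Ddx3y above 1 CPM its log2 fold change was 3.18 ± 0.25 (FDR = 1.52e-04), and among those with Ddx3y below 1 CPM 0.14 ± 0.23 (FDR = 0.737), with the difference between the 2 not tested. Ttr passed in both, with 1.98 ± 0.47 (FDR = 0.0130) and 1.43 ± 0.19 (FDR = 0.0151). The PS19 libraries below 1 CPM were the near-identical replicates 4 to 6, and the near-identical CgA-KO/PS19 replicates 1 and 3 were above it. Neither fit was repeated with such libraries averaged, so the errors and FDRs of both may be too small. The same CgA-KO/PS19 replicates 1 to 3 had the high mitochondrial share given above and a sum of oligodendrocyte genes of 2979 to 3377 CPM, against 1824 to 1934 CPM in replicates 4 to 6. Their striatal sum was 514 to 1974 CPM against 256 to 451 CPM, and their cortical excitatory sum 1476 to 1904 CPM against 2426 to 2558 CPM. Prnp was at 1974 to 2368 CPM in PS19. In CgA-KO/PS19 it was at 1676 to 2079 CPM in replicates 4 to 6 and at 1236 to 1348 CPM in replicates 1 to 3. Enpp2, which oligodendrocytes express, was lower in those replicates although the oligodendrocyte sum was higher. The part of these features in the levels of Clic6 and Enpp2 was not tested.

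The comparison of WT with PS19 asks what the Tau transgene changes. With all 17 libraries 6 of 9 members were higher in WT, Ttr, Clic6, Sostdc1, Kl, Otx2 and Slc4a5, beside 5.9% of genes tested, and the log2 fold change of Ttr was 7.61. This fit holds the library that chose the set. Without WT replicate 5, 4 of 8 members were called, all higher in WT, beside 2.79% of genes tested. Ttr was higher by a log2 fold change of 2.49 ± 0.34 (FDR = 8.11e-04), Clic6 by 3.35 ± 0.49 (FDR = 0.00154), Sostdc1 by 2.11 ± 0.34 (FDR = 0.00268) and Kl by 1.01 ± 0.18 (FDR = 0.00499). Averaging the near-identical libraries as well left 4 of 7 called, the same genes, beside 0.77% of genes tested. Before averaging, in the fit without WT replicate 5, Enpp2 had a log2 fold change of -0.52 ± 0.15 (FDR = 0.0737). Otx2 had 1.78 ± 0.93 (FDR = 0.358) in that fit, Aqp1 1.46 ± 0.88 (FDR = 0.432) and Folr1 -0.37 ± 0.90 (FDR = 0.881). The 4 WT libraries did not overlap PS19 for 4 of 9 members, with Ttr, Sostdc1 and Clic6 higher and Enpp2 lower, where 10.1% of genes tested did not overlap. The striatal sum of the same 4 WT libraries, 1326 to 3393 CPM, lay above the PS19 range of 220 to 394 CPM. Their hippocampal sum, 191 to 276 CPM, lay above the PS19 range of 132 to 147 CPM as well, and Nnat and Wfs1, 2 of its 10 genes, were called higher in WT with and without the averaging. The part of both sums in these differences was not tested. Both comparisons share the PS19 libraries, so the rise of Ttr, Sostdc1, Clic6 and Kl in both is not seen in independent samples.

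The other choroid plexus genes were counted in the same fits, and the difference between that list and the 9 genes was not tested. Against PS19, 0 of 32 were called in CgA-KO/PS19 by edgeR with all libraries, beside 9.72% of genes tested, and 0 of 32 without WT replicate 5, beside 9.36%. Of these, 6 and 10 had an unadjusted p under 0.05. With all libraries DESeq2 called 5 of 39, Cab39l, Car12, Sulf1, Trpm3 and Wfikkn2, named here after their values were seen. Over all 25967 genes with an adjusted p, it called 2338 higher and 1620 lower. In WT without replicate 5, 4 of 32 were higher by edgeR and none lower, beside 2.79% of genes tested, with a median log2 fold change over the list of 0.06. These were Car12, a carbonic anhydrase, at 22.7 to 41.5 CPM against 4.65 to 7.43 CPM in PS19 (log2 fold change 2.46 ± 0.36, FDR = 0.00137), and Sulf1, a heparan sulfatase, at 27.6 to 38.8 CPM against 8.78 to 15.7 CPM (1.49 ± 0.24, FDR = 0.00255). Gmnc, a regulator of multiciliated cells, and Tmem72 were the others, at 0.868 to 1.58 CPM against 0.407 to 0.699 CPM and at 0.461 to 1.94 CPM against 0.185 to 0.474 CPM. DESeq2 on the same libraries called 7 of 39, 5 higher and 2 lower, beside 861 higher and 515 lower of all 21972 genes with an adjusted p. With the near-identical libraries averaged as well, edgeR called 2 of 30, Car12 and Sulf1, beside 0.77% of genes tested. In the fit that holds WT replicate 5, 10 of 32 were past the threshold, beside 5.9% of genes tested, and Slc29a4, a monoamine transporter, and Prlr were among the 6 that edgeR did not call without it.

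Genes of the pathways in which the members work were counted the same way, without WT replicate 5. The list for retinol and thyroid hormone handling, the cargo of transthyretin, held 15 genes. In CgA-KO/PS19, Dio2, the deiodinase that activates thyroxine, went from 59.1 to 118 CPM in PS19 to 110 to 205 CPM and rose by a log2 fold change of 0.85 ± 0.21 (FDR = 0.0208), while Hr, a corepressor that binds the thyroid hormone receptor, fell by 0.85 ± 0.20 (FDR = 0.0180) and Rbp4, the plasma retinol carrier, fell by 0.46 ± 0.12 (FDR = 0.0276). In WT, 2 of the 15 were called, both higher, beside 2.79% of genes tested. These were Dio3, the deiodinase that inactivates thyroid hormone, with 2.59 ± 0.51 (FDR = 0.00961), and Crabp1, a retinoic acid-binding protein, with 3.56 ± 0.93 (FDR = 0.0489). In the fit that holds WT replicate 5, the log2 fold change in WT was -1.03 ± 0.24 for Hr and 0.94 ± 0.26 for Crym, and neither gene passed without that library.

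Of 15 ion and water transporters of fluid secretion, 1 rose and 1 fell in CgA-KO/PS19. Aqp4, the water channel of astrocytes, rose by 0.67 ± 0.19 (FDR = 0.0397), and the chloride channel Clcn2 fell by 0.59 ± 0.16 (FDR = 0.0312). In WT, 1 of the 15 passed, beside 2.79% of genes tested, the bicarbonate transporter Slc4a7, with 0.63 ± 0.16 (FDR = 0.0447). Clcn2, with -0.60 ± 0.17 in the fit that holds WT replicate 5, did not pass without it. Of 9 genes of the lysophosphatidic acid axis downstream of Enpp2, the receptor Lpar1 rose by 0.64 ± 0.16 (FDR = 0.0201) in CgA-KO/PS19 and the phosphatase Plpp1 fell by 0.49 ± 0.13 (FDR = 0.0285). None of the 9 passed in WT, where 0 had an unadjusted p under 0.05 by edgeR and DESeq2 called 0. None of 7 tested genes of the klotho and FGF receptor list passed in either comparison by edgeR, with 1 at an unadjusted p under 0.05 in each, and DESeq2 called 0. The edgeR counts for fluid secretion, lysophosphatidic acid, and klotho with FGF receptors were 2 of 15, 2 of 9 and 0 of 7 in CgA-KO/PS19, beside 9.36% of all genes. When the near-identical libraries were averaged as well, 0 genes of these 3 lists were called by edgeR in either comparison. The counts at an unadjusted p under 0.05 were then 2, 2 and 0 in CgA-KO/PS19 and 3, 0 and 0 in WT, and Dio2, Hr, Rbp4, Dio3 and Crabp1 were not called either.

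The genes whose order over the 17 libraries was most like that of Ttr, members left out, were Mmab, Lrrn4, Ccdc39, Glra2, Gm11639, Rsph4a, Trhr, Bbx, Vwa3a and Jhy, with Spearman coefficients between 0.897 and 0.912. Libraries, their depth and the order of the genotypes are shared by all these genes, so the coefficients are descriptive. None stood out in WT replicate 5 as Ttr did. Mmab, which encodes an enzyme of cobalamin metabolism, was at 36.2 CPM there and at 38.6 CPM in the highest other library, and Trhr, the receptor of thyrotropin-releasing hormone, at 28.7 and 20.6 CPM. Ccdc39 and Rsph4a, components of motile cilia, were at 18.7 and 10.6 CPM there, against 17.7 and 7.41 CPM in the highest other library. Over the 16 libraries without WT replicate 5, the Spearman coefficient with Ttr was 0.73 for Clic6, 0.69 for Sostdc1, 0.63 for Kl, 0.35 for Otx2, 0.02 for Slc4a5, -0.25 for Folr1, -0.45 for Aqp1 and -0.71 for Enpp2. With the genotypes pooled, the members that followed Ttr among the remaining libraries were thus Clic6, Sostdc1 and Kl, and Enpp2 ran the other way. The order of the genotypes enters these coefficients, and none was computed within a genotype. In WT replicate 4 and CgA-KO/PS19 replicate 2, the highest for Ttr in their genotypes here, Kl was lowest, at 2.74 and 3.01 CPM. In PS19 replicate 2, also the highest for Ttr, Kl was 2.28 CPM, within the range of 1.77 to 2.79 CPM. Within each genotype of these 16 libraries, Sostdc1 was highest where Ttr was lowest.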

How the data were processed

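Poly(A) RNA of cortex was sequenced in 17 libraries. Per the labels, the authors used FastQC, Trimmomatic 0.39, STAR 2.7.10b with mm10, StringTie 1.3.6 and DESeq2 1.42.0, and they deposited whole-number counts per gene, without normalization; the annotation release and strand setting are not given in the sources used here. Identifiers matched GENCODE M21 (GRCm38) for 52029 of 56953 genes without their version, and 35 with it, and positions and exon lengths are from that release.

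Counts were analysed with edgeR 4.0.16 in R 4.3.3 (TMM, filterByExpr by genotype, quasi-likelihood test, 1 mean per genotype, no covariate, all libraries in 1 fit), with p-values adjusted by Benjamini-Hochberg across the 23062 genes that passed the filter, after the test had been tested on simulated data. The paper gives its replicates as biological ones, but near-identical libraries may not be independent samples. P-values measure only the spread between the libraries. Replicate numbers did not pair single libraries, though they followed the level of Ddx3y. Members, lists and tests were chosen with earlier results of these data known. Named genes are the 9 members, list genes called at an FDR under 0.05 (at most 6 per list and comparison), the 8 other choroid plexus genes with the largest fold in the library with the highest Ttr, and the 10 most like Ttr. Alternatives were DESeq2 1.42.0, its size factors, limma 3.58.1 voom, other filters, counts divided by 3, a replicate block, only the compared genotypes, and each library left out. Those on Ddx3y, near-identical libraries and further fits without the library with the highest Ttr were chosen after seeing the data. 1 list gene is not reported here. Figures used matplotlib 3.10.9.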

Additional observations from a re-analysis of the deposited data

Results flagged for a closer look

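Within each genotype, the highest and the lowest library of each member were checked for standing apart by more than Dixon's 95% limit, which chance passes in about 1 in 20 groups. Over 27 groups, 9 libraries passed. WT replicate 5 was the high one for 8 members, with 1023 CPM of Ttr, 307 CPM of Enpp2, 35.4 CPM of Kl, 19.3 CPM of Sostdc1, 24.7 CPM of Clic6, 4.64 CPM of Slc4a5, 4.30 CPM of Otx2 and 2.25 CPM of Folr1. The 9 genes were selected for the level of Ttr in this library, so these 8 restate that choice and are not set against chance. For Aqp1 it did not pass, since WT replicate 3 was high too. The remaining one was CgA-KO/PS19 replicate 2, with 6.75 CPM of Ttr against a median of 2.92 CPM in the other 5 libraries of its genotype. That library also had the highest mitochondrial share, 18.2%, and its part in the value was not tested.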

How the results depend on the processing

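For CgA-KO/PS19 against PS19, 1 of 9 members was called with all libraries, 2 by limma voom, 5 with only the compared genotypes, and 0 to 5 with single libraries left out: 5 without WT replicate 5, and 0 without PS19 replicate 2, 3 or 5 or CgA-KO/PS19 replicate 1, 2 or 3. Of all 23062 genes tested, limma voom called 2379 higher and 2850 lower. The fit of only the compared genotypes called 1550 higher and 1319 lower of 21837. Without WT replicate 5, 5 were called by DESeq2 and 5 without the shallowest library too, but 0 after averaging near-identical libraries, where fewer samples entered the fit. Over all genes these fits called 2255 higher and 1584 lower of 25044, 1697 and 1682 of 24212, and 90 and 43 of 21293. Libraries with Ddx3y above 1 CPM gave 6, where 3214 of 21613 genes tested were called higher and 3499 lower. Those below it, whose PS19 libraries were the near-identical replicates 4 to 6, gave 1, Ttr. There 407 of 21878 genes tested were called higher and 267 lower. For WT against PS19, 6 were called, 3 by DESeq2, 3 with at least 10 counts in every library, 2 with Ddx3y above 1 CPM, and 4 to 6 with single libraries left out. Over all genes DESeq2 called 1386 higher and 1010 lower of 24423, and the filter at 10 counts 930 and 508 of 14521. With Ddx3y above 1 CPM the numbers were 98 and 30 of 21613. With all libraries DESeq2 gave Ttr, Sostdc1 and Slc4a5 no adjusted p, so its counts rest on 6 members.

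With the replicate number as a block, CgA-KO/PS19 had 0 calls (2 without WT replicate 5) and WT 2 (3 without it). Over all 23062 genes tested the block fit called 388 higher and 266 lower in CgA-KO/PS19, and 513 and 147 in WT. Without WT replicate 5 it called 360 and 255 in CgA-KO/PS19, and 148 and 22 in WT, of 22681. Same-numbered libraries correlated between -0.091 and 0.414, with 2 of 16 pairs over 0.1, so these values gave no pairing of single libraries. The numbers still carried the split on the Y-linked gene Ddx3y, above 1 CPM only in the libraries numbered 1 to 3 of each genotype.

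Direction turned for the lowest genes. Folr1 in WT ran from -0.37 without WT replicate 5 to 2.25 with other single libraries left out. It went, beside leaving out WT replicate 5, to -0.33 with 2 genotypes, -0.47 by DESeq2, -0.21 without the shallowest library and -1.43 with the block, and to -0.22 with Ddx3y above 1 CPM. Aqp1 went to -0.12 in WT (without replicate 5, block) and in CgA-KO/PS19 ran from -0.41 to 0.092 with single libraries left out, above 0 without replicate 5 or 6 of that genotype, and went to 0.55 with Ddx3y above 1 CPM. The cause was not tested. Ttr, Clic6, Kl, Sostdc1, Otx2, Slc4a5 and Enpp2 kept their direction in both comparisons under every alternative that gave them a value. The levels in WT replicate 5 did not turn on scaling, with a log2 fold of Ttr over the median of the others of 8.52 to 8.59. Below about 0.3 CPM a few fragments set the value in the shallower libraries. In the deepest library, PS19 replicate 6, 0.264 CPM of Sostdc1 stood for 60 deposited counts.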
